A study of Mus musculus with 5 samples.

Results

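The 52 genes described here are named for cytosolic translation initiation factors (45 genes, names starting with Eif) or elongation factors (7 genes, names starting with Eef). They are out of 10291 genes with a line in at least 1 of 4 count tables. They were chosen by name alone: 56 names began with Eif or Eef and a digit, and the 4 kinases Eif2ak1 to Eif2ak4 were left out. Both groups follow the names, so they also hold genes that act on the factors. These are Eif4ebp1, Eif4ebp2 and Eif4enif1, which bind eIF4E, and the methyltransferase genes Eef1akmt1 and Eef1akmt2. The libraries came from CD4 T cells sorted by flow cytometry from the colon or a lymph node (mLN in the titles) of mice in a study of autoimmune colitis, and held poly(A) RNA read from the 3' end with barcodes of 7 bases and molecular identifiers of 8 bases. Light libraries came from mice exposed to a 980 nm laser (1.22 W, 80% duty), whose spot covered 4 square centimetres, in sessions of 5 minutes once every 2 days. Control libraries are labelled only as control, although their records carry the same laser text. The labels used here give no strain, age, sex, colitis model, sham exposure or number of mice per library. Each of the 4 groups (control and light in the colon, control and light in the lymph node) has 1 library. Differences therefore have no replicate check and p-values are not given. Where 4 values stand in a row, they run colon control, colon light, lymph node control, lymph node light.

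Translation begins when a small ribosomal subunit, carrying the initiator tRNA on eIF2, is brought to the capped end of an mRNA by eIF4F and eIF3 and scans to a start codon under the control of eIF1, eIF1A and eIF5. After the subunits join with the help of eIF5B, eEF1A delivers each aminoacyl-tRNA, the eEF1B subunits recharge eEF1A with GTP, and eEF2 moves the ribosome along by a codon. T cells are known to raise their protein synthesis strongly on activation, and many mRNAs of the translation machinery are themselves under the control of mTOR.

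Summed counts were 433663 and 1959269 in the colon control and light libraries, and 971204 and 1068832 in those of the lymph node. A molecule was counted in several barcode columns. Each sum was therefore divided by the columns per molecule, weighted by size, which left 6140, 37477, 11506 and 21198 molecule-equivalents. Intervals are exact (Clopper-Pearson, 95%), are computed on molecule-equivalents and reflect counting error alone. A level is given in CPM, the summed counts scaled to a library total of 1000000. A floor of 3 molecule-equivalents was set for a value of 0, or 489, 80.05, 261 and 142 CPM. The exact interval of a 0 reaches higher, to 0.0601%, 0.00984%, 0.0321% and 0.0174% of the counts. Where a number of molecules is given, it was recovered from column patterns shared between genes, which solved 136 of 137 lines of these genes exactly. The colon control stands apart: it shares at most 5 barcodes with any other table, against 373 or 374 among the other tables. Of 12 CD4 T cell markers, Cd3d, Cd3e, Cd3g and Cd4 gave no value in it, because their lines repeat those of another table. Of the 8 left, 3 had a count there, with 341 CPM in sum. The same 8 summed to 2409 CPM in the colon light and 7703 CPM in the lymph node control library. All 12 summed to 3099 to 9910 CPM outside the colon control. Of 10 myeloid markers 4, 6, 3 and 5 had a count, and they summed to 786, 2750, 341 and 564 CPM. Of 12 B and plasma cell markers 3, 5, 5 and 4 had a count, summing to 574, 2011, 1013 and 194 CPM, with the defining Cd79a, Cd79b and Ms4a1 at 0 in every library. The colon light sum was mostly Cd74, H2-Ab1, H2-Aa and H2-Eb1 (351 to 609 CPM each), MHC class II genes that are not confined to B cells. The immunoglobulin gene Igkc was at 231, 20.4, 324 and 0 CPM, and Ighm at 125, 0, 0 and 34.6 CPM. All 10 epithelial markers were at 0 in all 4 libraries. The part of these differences in any result below was not tested.

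Of the 52 genes, 10 had a line in the colon control and 45 in the colon light table, and 35 and 47 had one in the lymph node control and light tables. 7 had a line in every library, 30 in all libraries other than the colon control, and 6 in exactly 1. Most were seen in few molecules, the median gene with a line having 1, 5, 2 and 2 molecules. Exactly 1 molecule was recovered for 8 of 10, 8 of 45, 17 of 35 and 11 of 47 of the genes with a line. GENCODE M21 holds 64 protein-coding names of this kind, and the 12 without a line in the tables used here include Eif2b1, Eif2b3, Eef1a2 and the eEF2 kinase Eef2k.

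**Figure D1:**
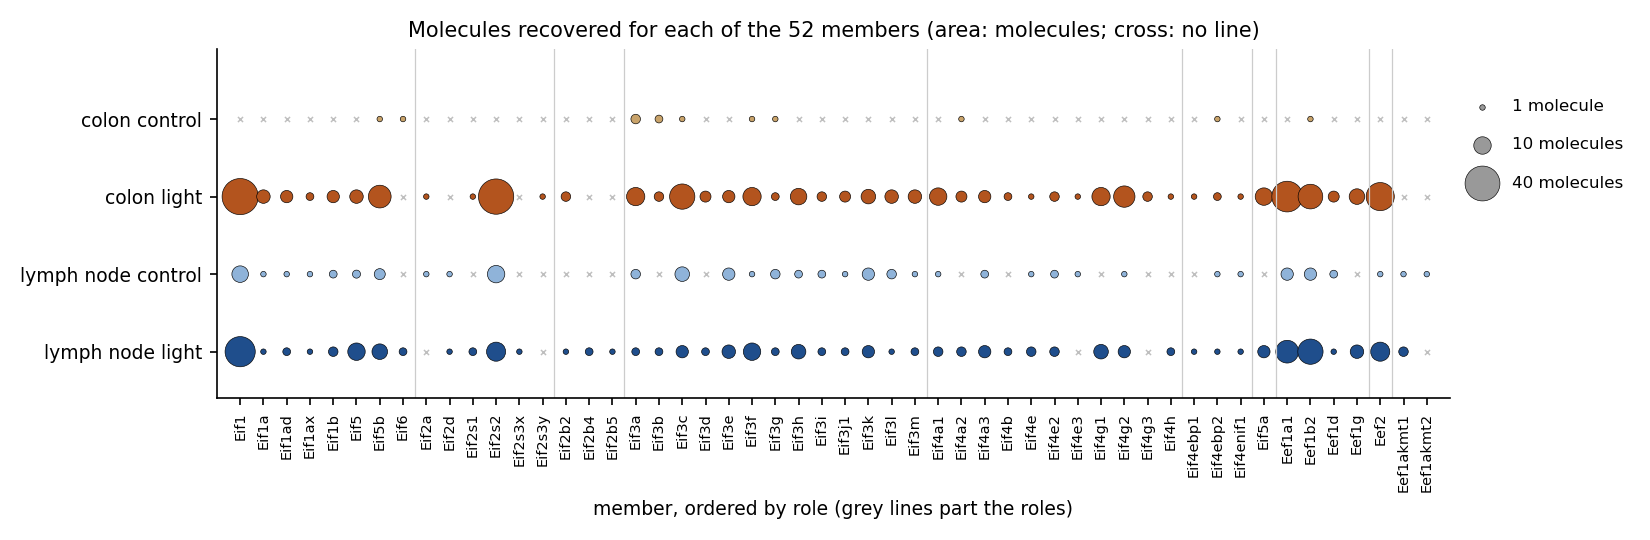
Molecules recovered for each of the 52 genes (x axis, ordered by role) in each library (y axis), with the circle's area in proportion to the number of molecules and a cross where the gene has no line. The largest circle of all is Eif1 in the colon light library (43 molecules), followed by Eif2s2 in the same library (41), and the colon control holds 13 molecules in all.

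7 genes reached 20 molecule-equivalents when the 4 libraries were added up: Eif1, Eif2s2, Eef1a1, Eef1b2, Eef2, Eif3c and Eif5b. Because the results turn on them, the region around the annotated start of 5 of them is shown. The sequences are from RefSeq (GRCm38.p6), 5' to 3' on the gene's strand, from 50 bases before to 50 after the annotated start. Starts can differ between annotations. The window of Eef1a1 lies inside its GENCODE M21 gene, which begins at 78489151 on the minus strand, so its motif position holds for the RefSeq start only. Capitals mark a match to TATAAA or TATATA, searched on both strands, which may overlap each other.
Eif1, chr11:100319899-100319998, plus strand: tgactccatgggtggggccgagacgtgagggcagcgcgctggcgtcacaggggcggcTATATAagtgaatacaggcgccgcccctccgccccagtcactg
Eef1a1, chr9:78481675-78481774, minus strand: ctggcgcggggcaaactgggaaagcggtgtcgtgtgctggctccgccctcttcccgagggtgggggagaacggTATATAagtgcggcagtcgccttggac
Eef2, chr10:81176581-81176680, plus strand: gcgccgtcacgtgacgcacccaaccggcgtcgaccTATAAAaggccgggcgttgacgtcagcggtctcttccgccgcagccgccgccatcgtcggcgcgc
Eif2s2, chr2:154892857-154892956, minus strand: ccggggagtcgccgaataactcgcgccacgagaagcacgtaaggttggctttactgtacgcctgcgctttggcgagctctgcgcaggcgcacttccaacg
Eef1b2, chr1:63176781-63176880, plus strand: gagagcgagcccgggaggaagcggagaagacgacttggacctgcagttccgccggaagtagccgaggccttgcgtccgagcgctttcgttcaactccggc
The motif starts at position 8 in Eif1, 24 in Eef1a1 and -15 in Eef2, counted from the annotated start as position 1. Of the 41 translation factor genes with an entry in the promoter table, these 3 held the motif in the 100 bases shown (7.32%), against 6.24% of all 32851 promoters of the table. In the full window of 300 bases, 7 of 41 held it (17.1%), against 17.1% of all promoters. No match says only that these letters are not in the window.

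Among the genes of start codon selection, Eif1 encodes the small factor that keeps the scanning ribosome open until a start codon is found. It lies on chromosome 11 (100319885 to 100322096, plus strand, GENCODE M21 on mm10). In the colon it was at 0 in the control and 857 CPM (43 molecules) in the light library, and in the lymph node at 756 CPM (9 molecules) and 1235 CPM (30 molecules). Eif1 was the highest of the 52 genes in the colon light and lymph node light libraries. Eif5b, the GTPase that joins the ribosomal subunits (chromosome 1, 37998010 to 38055579, plus strand), was at 157, 324, 369 and 257 CPM from 1, 17, 4 and 8 molecules. The levels of Eif5b in the libraries other than the colon control lay within 1.5-fold of each other. Over the 8 genes of this role, which also include Eif1a, Eif1ad, Eif1ax, Eif1b, Eif5 and Eif6, the sum was 286, 1646, 1787 and 2194 CPM. This role too is drawn widely, since Eif6 acts on the large ribosomal subunit and not in scanning. Eif1ax, the X-linked eIF1A gene, was the lowest with a count in each library other than the colon control, at 25.0 to 75.2 CPM.

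Eif2s2 encodes the beta subunit of eIF2, the factor that carries the initiator tRNA (chromosome 2, 154871410 to 154892935, minus strand). In the colon it was at 0 in the control and 838 CPM (41 molecules) in the light library, and in the lymph node at 819 CPM (10 molecules) and 416 CPM (12 molecules). The colon light and lymph node control libraries were the high ones. The other subunit genes were far lower: Eif2s1, the alpha subunit, whose phosphorylation slows initiation, was at 14.8 CPM in the colon light and 73.0 CPM in the lymph node light library and had no count in the others. Within the colon light library Eif2s2 exceeded Eif2s1 by 5.82 on the log2 scale (2.62 to 14.9), and within the lymph node light library by 2.51 (0.03 to 6.40). In the lymph node control, where Eif2s1 was at 0, the lower end of the interval was 1.06. Levels of different genes are compared per molecule, since a count stands for a poly(A) end and not for a length of transcript. The gamma subunit genes gave 1 molecule each, Eif2s3x at 17.8 CPM in the lymph node light and Eif2s3y at 16.8 CPM in the colon light library. The eIF2 sums below also hold Eif2a and Eif2d, which are not subunits of eIF2 and had at most 1 molecule in any library. Part of the sequence at the 3' end of Eif2s2 is shared with another gene: 25.5% of the 31-base words in the last 500 bases of its transcripts occur in Gm9892, which had no line in the tables used here. eIF2B, which recharges eIF2 with GTP and is held back when eIF2 is phosphorylated, was seen in few molecules. Its 3 subunit genes with a line, Eif2b2, Eif2b4 and Eif2b5, had 3 molecules in the colon light and 4 in the lymph node light library, with none in the control libraries.

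Eif1 and Eif2s2 were the highest initiation factor genes over the 4 libraries, and their log2 difference is given for each library in turn. In the colon light library they differed by 0.03 on the log2 scale (-0.72 to 0.79), and in the lymph node control by -0.12 (-1.63 to 1.38). In the lymph node light library Eif1 was higher by 1.57 (0.42 to 2.86). The difference between the light libraries in this log2 ratio, taken on whole molecules (43 and 41 against 30 and 12), was -1.24, with an exact conditional interval of -2.54 to -0.02. Between lymph node light and control the same difference was 1.45 (-0.36 to 3.30), and between colon light and lymph node control 0.22 (-1.39 to 1.85). This pair was chosen after its values were seen, so these differences are a description only. Together these genes made up 30.1%, 26.1% and 27.3% of the initiation factor counts in the 3 libraries other than the colon control.

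The eIF3 complex is the largest initiation factor and holds the small subunit ready for mRNA. Its 13 subunit genes with a line summed to 1038, 1843, 2469 and 1654 CPM. All 13 had a count in both light libraries, and 11 of them in the lymph node control against 5 in the colon control. Eif3c, a core subunit (chromosome 7, 126546455 to 126566411, minus strand), was at 53.0, 398, 603 and 190 CPM, from 1, 21, 7 and 5 molecules. It was the highest eIF3 gene in the colon light and lymph node control libraries, whereas Eif3f, at 325 CPM and 10 molecules, was highest in the lymph node light library. The lowest were Eif3b at 39.3 CPM in the colon light, Eif3m at 59.7 CPM in the lymph node control and Eif3l at 24.3 CPM in the lymph node light library. eIF3 genes supplied 8 of the 12 initiation factor molecules of the colon control, 3 of them from Eif3a.

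eIF4F binds the cap through eIF4E, bridges to the ribosome through eIF4G and unwinds the leader with the helicase eIF4A. The 11 genes of this role summed to 297, 992, 654 and 1221 CPM. The role is wider than eIF4F, as it holds relatives such as Eif4g2 and Eif4a3 that are not parts of that complex. The highest in the light libraries were genes of the eIF4G family, Eif4g2 at 235 CPM (15 molecules) in the colon and Eif4g1 at 260 CPM (7 molecules) in the lymph node. In the control libraries the highest were the helicase gene Eif4a2 at 297 CPM (1 molecule) in the colon and the eIF4E relative Eif4e2 at 193 CPM in the lymph node. Eif4e, the cap-binding protein itself, was at 0, 39.3, 79.3 and 141 CPM. The genes that hold eIF4E back, Eif4ebp1, Eif4ebp2 and Eif4enif1, gave 1, 4, 2 and 3 molecules in all. Eif5a, which eases the ribosome through difficult peptide bonds although it is named as an initiation factor, was at 172 CPM (10 molecules) in the colon light and 207 CPM (5 molecules) in the lymph node light library and at 0 in the control libraries.

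Among the elongation factors, Eef1a1 encodes the GTPase that delivers aminoacyl-tRNAs and is among the most abundant proteins of most cells (chromosome 9, 78478449 to 78489151, minus strand). In the colon it was at 0 in the control and 640 CPM (31 molecules) in the light library, and in the lymph node at 454 CPM (5 molecules) and 591 CPM (17 molecules). Eef1b2, its nucleotide exchange factor (chromosome 1, 63176825 to 63180486, plus strand), was at 118 CPM (1 molecule), 419 CPM (20), 393 CPM (5) and 740 CPM (21). Eef2, the translocase (chromosome 10, 81176631 to 81182498, plus strand), was at 0, 493 CPM (26 molecules), 102 CPM (1 molecule) and 431 CPM (12 molecules). These 3 genes made up 83.4%, 71.9% and 83.1% of the elongation factor counts in the 3 libraries other than the colon control. In those 3 libraries the log2 difference of each pair of them had an interval that included 0. Eef1g, a structural subunit of eEF1B, was at 228 CPM in the colon light and 193 CPM in the lymph node light library and at 0 in the control libraries. In the colon light library Eef1a1 exceeded Eef1g by 1.49 (0.31 to 2.81), and in the lymph node light library by 1.62 (-0.08 to 3.67). The methyltransferase genes Eef1akmt1 and Eef1akmt2, which modify eEF1A, had at most 3 molecules in any library.

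The level of Eef1a1 is uncertain for a further reason. Of the 31-base words in the last 500 bases of its transcripts, 77% occur in transcripts of 27 other genes, most of them in the gene model Gm13456 (56.6%), which had 12.8 CPM in the colon light and no count in the other libraries. For Eif1 and Eef1b2 the share was 26.1% and 22.7%, and for Eef2 5.53%. In all, 15 of the 52 genes shared at least 10% of these words with another gene, and 22 shared none. The sources used here do not say how reads that match several genes were counted.

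**Figure D2:**
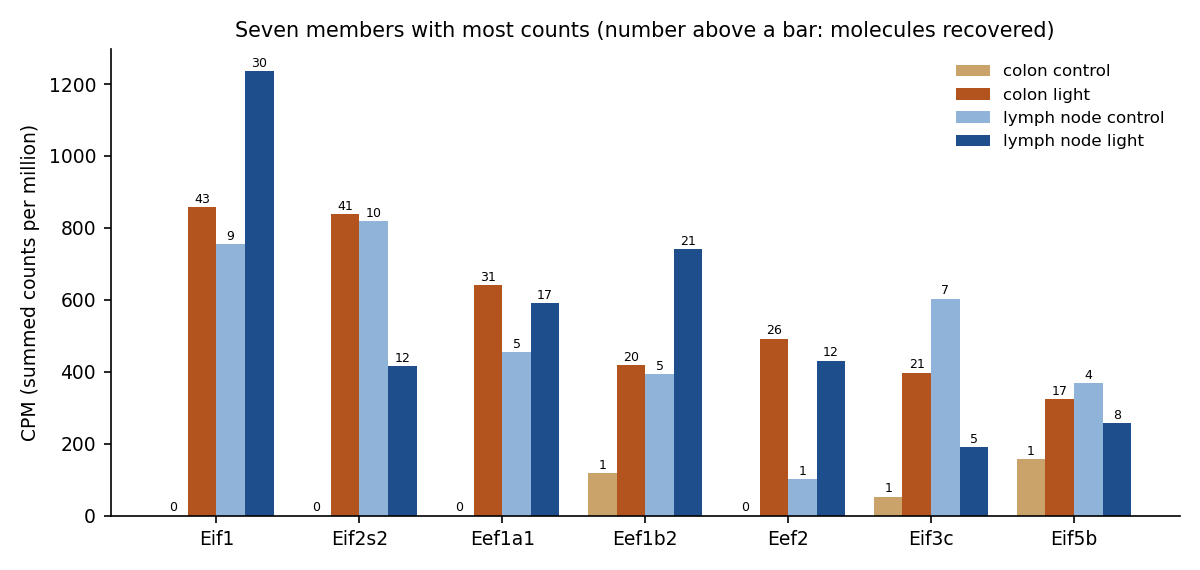
Level in CPM (bars, y axis from 0) of the 7 genes with most counts in the 4 libraries, with the number of recovered molecules above each bar. Eif1, Eif2s2, Eef1a1 and Eef2 are at 0 in the colon control, and Eif1 reaches 1235 CPM in the lymph node light library.

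Over all 52 genes, zeros included, Spearman's rho of CPM was 0.74 between the colon light and lymph node light libraries, 0.62 between the colon light and lymph node control, and 0.41 between the lymph node libraries. Against the colon control it was 0.13 to 0.17. These are descriptions across genes, which are not independent replicates, and they share the zeros of genes seen in few molecules.

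As a group, initiation factors took 0.171% of the counts in the colon control (0.0837 to 0.310) and 0.564% in the colon light library (0.491 to 0.645). In the lymph node they took 0.603% under control (0.469 to 0.762) and 0.606% under light (0.506 to 0.719). Elongation factors took 0.0118% (8.7e-05 to 0.0827), 0.186% (0.145 to 0.235), 0.132% (0.0742 to 0.217) and 0.212% (0.155 to 0.284). These values include the methyltransferase genes Eef1akmt1 and Eef1akmt2, which together took 0, 0, 0.0153% and 0.0132% of the counts. The colon control was lowest in both groups, and its initiation factor interval lay below those of the other 3 libraries. Elongation factor counts per initiation factor count, a ratio that does not depend on the library total, were 0.33 (0.248 to 0.434) in the colon light library. In the lymph node they were 0.219 (0.117 to 0.386) under control and 0.35 (0.243 to 0.495) under light. The 3 intervals overlap. In the colon control, with 1 elongation factor molecule, the ratio was 0.0688 (0.000471 to 0.599).

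**Figure D3:**
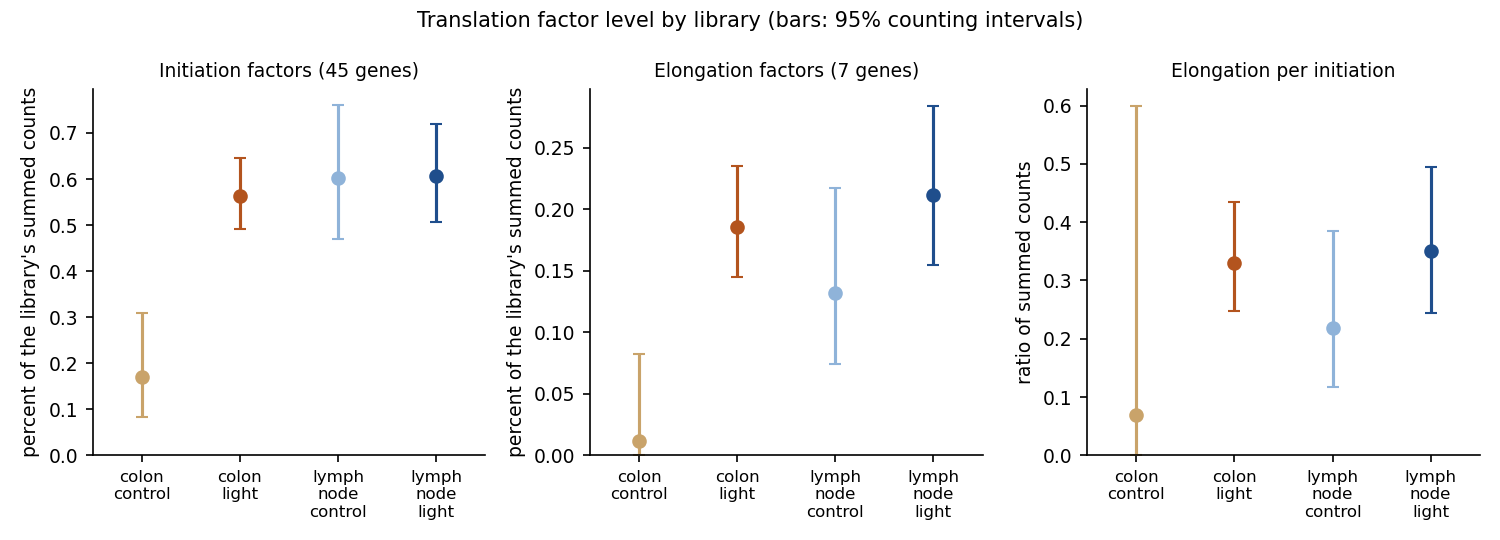
Share of summed counts taken by initiation factors (left) and elongation factors (middle) and the ratio of elongation to initiation counts (right) in the 4 libraries, with bars for 95% counting intervals. Initiation factors sit at 0.564 to 0.606% in 3 libraries and at 0.171% in the colon control.

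The first comparison asks how the light library differed from the control library in the lymph node. Initiation factors as a group were at 6056 CPM in the light and 6026 CPM in the control library, a log2 ratio of 0.01 (-0.43 to 0.45). Elongation factors were at 2120 against 1320 CPM, a log2 ratio of 0.68 (-0.18 to 1.63), which includes 0. With each recovered molecule counted once (60 against 15) the log2 ratio was 0.88 (0.05 to 1.81), and with median-of-ratios scaling it was 1.16 (0.30 to 2.11). Median-of-ratios scaling added 0.48 to every log2 ratio in this comparison and also moved initiation factors above 0, to 0.49 (0.06 to 0.93). It rests on the 2516 genes with a count in both libraries, so genes at 0 in either library drop out. In every comparison it shifted ratios in favour of the deeper library, and the part of depth in this shift was not tested. Whether either sum lay beyond counting error thus depended on the setting.

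By role, start codon selection genes had a log2 ratio of 0.30 (-0.48 to 1.12), eIF4F genes 0.90 (-0.31 to 2.30), eIF2 genes -0.82 (-2.15 to 0.52) and eIF3 genes -0.58 (-1.33 to 0.19). All these intervals include 0. With median-of-ratios scaling that of the eIF4F genes did not (1.38, 0.17 to 2.78). The eIF2 value rested on Eif2s2, without which it was -0.09 (-3.62 to 4.26). What remained of this role in the lymph node control was Eif2a (77.2 CPM) and Eif2d (52.5 CPM), which are not subunits of eIF2. The eIF3 value was -0.35 (-1.19 to 0.52) without Eif3c and -0.85 (-1.66 to -0.03) without Eif3f. Within the elongation factors the eEF1 genes had 0.55 (-0.44 to 1.63), or 1.03 (0.05 to 2.11) with median-of-ratios scaling, and Eef2 had 2.08 (-0.62 to 6.87).

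Of the 50 translation factor genes with a count in either lymph node library, the interval of none excluded 0, where 0.813% of 6884 genes with a count had an interval that did. 2 genes passed the filter of 20 molecule-equivalents over both libraries, and 0 of 2 were at least 2-fold apart, against 11.2% of the 188 genes that passed. Those 2 were Eif1, at 1235 against 756 CPM with a log2 ratio of 0.71 (-0.44 to 2.01), and Eef1b2, at 740 against 393 CPM with 0.91 (-0.66 to 2.82). With median-of-ratios scaling the interval of Eif1 lay above 0 (1.19, 0.04 to 2.49), 1 of 50 genes beside 0.857% of all genes with a count. The log2 ratio, with a prior count of 0.5, was above 0 for 22 of 43 initiation factor genes and for 5 of 7 elongation factor genes, beside 4071 of 6884 for all genes. A gene with a single molecule in the deeper light library and none in the control counts as above 0 here. Cytosolic ribosomal protein genes had a log2 ratio of -0.29 (-0.38 to -0.20) for their sum, at 115322 CPM in the light and 140695 CPM in the control library. Its direction reversed with median-of-ratios scaling, to 0.19 (0.10 to 0.29).

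The second comparison sets the colon against the lymph node in the light libraries. Initiation factors were at 5640 CPM in the colon and 6056 CPM in the lymph node, a log2 ratio of -0.10 (-0.43 to 0.23). Elongation factors were at 1860 against 2120 CPM, with -0.19 (-0.75 to 0.39). Neither group differed beyond counting error on the library total. Median-of-ratios scaling added 0.54 to every log2 ratio and gave 0.44 (0.12 to 0.77) for initiation factors, above 0, and 0.35 (-0.21 to 0.93) for elongation factors. Leaving ribosomal RNA genes and Gm12374 out of the totals gave 0.27 (-0.05 to 0.60) and 0.19 (-0.37 to 0.76). The sign of both group differences thus turns with the scaling.

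By role the log2 ratios, colon minus lymph node, ran from -0.42 (-0.99 to 0.17) for start codon selection genes to 0.72 (-0.29 to 1.83) for eIF2 genes, with 0.16 (-0.45 to 0.79) for eIF3 and -0.30 (-1.06 to 0.48) for eIF4F genes. Without Eif2s2 the eIF2 value was -1.39 (-5.35 to 2.04). With median-of-ratios scaling the eIF2 value was 1.26 (0.25 to 2.37) and the eIF3 value 0.70 (0.09 to 1.33), both above 0, and those of start codon selection (0.13) and eIF4F genes (0.24) changed sign. Without ribosomal RNA genes in the totals eIF2 had 1.09 (0.09 to 2.21). Of the 51 genes with a count, the interval of none excluded 0, beside 2.8% of 8722 genes. Of the 5 that passed the filter, 0 were at least 2-fold apart, beside 32.7% of the 294 genes that passed. Eif2s2 came closest, at 838 against 416 CPM with a log2 ratio of 1.01 (-0.10 to 2.28), or 0.98 with the prior count. Its interval lay above 0 with median-of-ratios scaling (1.55, 0.44 to 2.82) and without ribosomal RNA genes in the totals (1.39, 0.27 to 2.65), 1 of 51 genes each time, beside 2.14% and 2.11% of all genes. Eef1b2 lay the other way, at 419 against 740 CPM with -0.82 (-1.93 to 0.29), as did Eif1 with -0.53 (-1.32 to 0.28). Eef1a1 had 0.11 (-0.93 to 1.23) and Eef2 0.19 (-1.02 to 1.51). In the same libraries myeloid markers summed to 2750 CPM in the colon and 564 CPM in the lymph node and CD4 T cell markers to 3099 and 8363 CPM, and their part in these values was not tested. Fewer cells of a type and less RNA per cell cannot be told apart in such libraries.

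The third comparison sets the colon light against the colon control library, the shallowest and the one that stands apart. Initiation factors were at 5640 against 1709 CPM, a log2 ratio of 1.72 (0.84 to 2.77). Elongation factors were at 1860 against 118 CPM, with 3.98 (1.12 to 11.1) resting on 1 molecule in the control. Both sums were higher in the light library beyond counting error under each alternative run, with initiation factors between 1.48 and 3.06 and elongation factors between 3.38 and 5.32. Median-of-ratios scaling added 1.34 to every log2 ratio here. Most genes that passed the filter moved the same way. Of these 201 genes, 91% differed by 2-fold or more, and 76.1% did so with the light library higher. Their median log2 ratio was 2.16. The filter itself favours this direction, since the light library held 37477 molecule-equivalents against 6140 in the control. Without the filter, the median over 7949 genes with a count was 0.88. Among them, 3636 rose by 2-fold or more in the light library and 1804 fell as far. The sum of cytosolic ribosomal protein genes was higher in the light library by 2.29 (2.03 to 2.56).

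Eif1, Eif2s2 and Eef1a1 passed the filter in this comparison. All 3 were at 0 in the control and passed through the light library alone, so their direction was set by the filter, their size on the scale with the prior count is set by that prior, and no fold is given. The intervals of Eif1 and Eif2s2 lay above 0, with lower ends of 0.43 and 0.39. They were 2 of 46 translation factor genes with a count, beside 4.08% of 7949 genes whose interval excluded 0. The interval of Eef1a1 had a lower end of -0.02. Counted as molecules, Eef1a1 had a lower end of 0.25. By role, start codon selection genes were higher by 2.52 (0.50 to 5.91) and eEF1 genes by 3.54 (0.66 to 10.6). For eIF3 genes the log2 ratio was 0.83 (-0.34 to 2.27) and for eIF4F genes 1.74 (-0.29 to 5.05), and with median-of-ratios scaling both lay above 0 (2.17, 1.00 to 3.61, and 3.08, 1.05 to 6.39). The 8 CD4 T cell markers that could be used in both summed to 2409 CPM in the light and 341 CPM in the control library. Whether their difference bears on these values was not tested.

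The control libraries were compared in the same way. Initiation factors were at 1709 CPM in the colon and 6026 CPM in the lymph node, a log2 ratio of -1.82 (-2.91 to -0.87), and elongation factors at 118 against 1320 CPM, with -3.49 (-10.6 to -0.46). No translation factor gene reached 20 molecule-equivalents over both libraries, so 0 of 0 were at least 2-fold apart, beside 96.6% of the 89 genes that passed. The intervals of Eif1 and Eif2s2 lay below 0, with upper ends of -0.01 and -0.15. Without ribosomal RNA genes in the totals neither did. On the library total they were 2 of 38 translation factor genes with a count, beside 4.49% of 5276 genes whose interval excluded 0. The eIF3 genes had -1.25 (-2.76 to 0.02), or -1.32 (-2.83 to -0.05) with median-of-ratios scaling. This comparison shares its colon library with the one before and its lymph node library with the first.

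**Figure D4:**
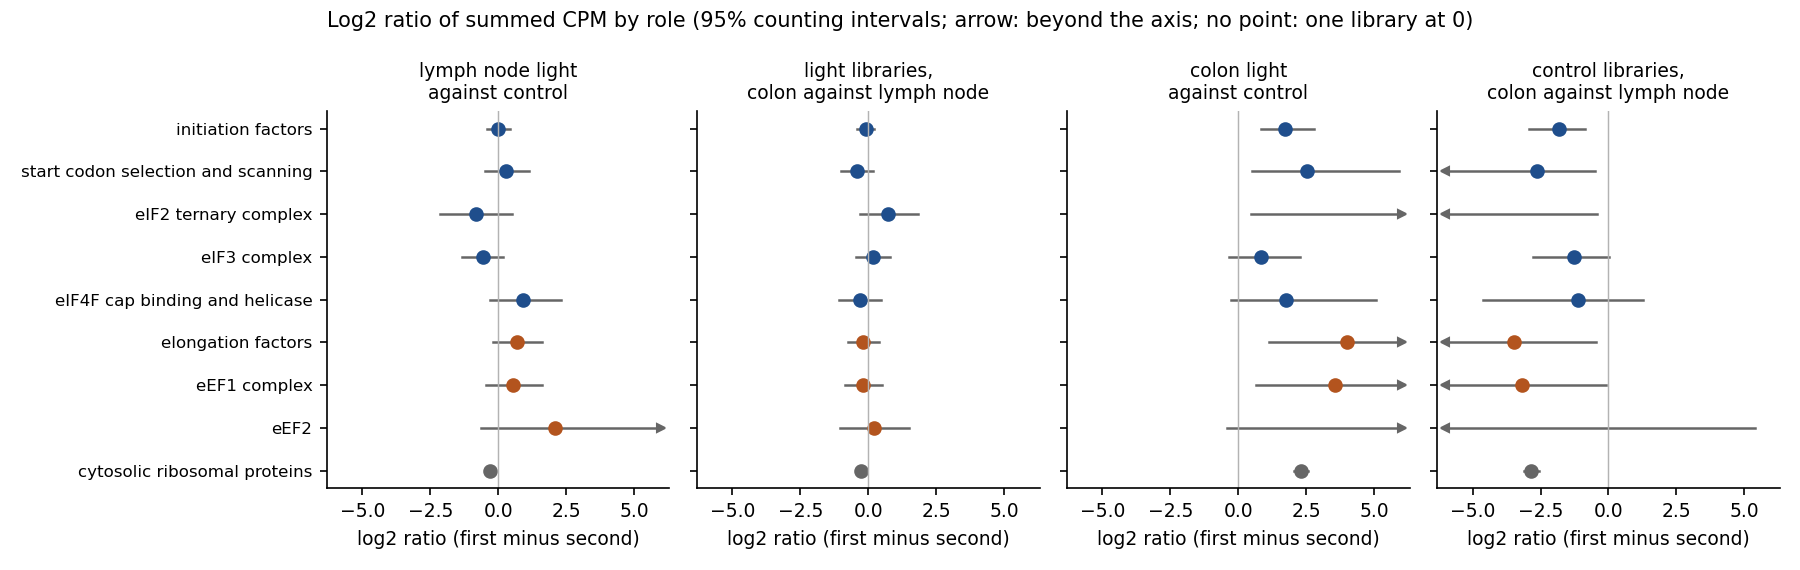
Log2 ratio of summed CPM, first library minus second, for both groups, 6 roles and the cytosolic ribosomal proteins (rows) in the 4 comparisons (panels), with lines for 95% counting intervals, arrows where an interval leaves the axis and no point where a library is at 0. Intervals of initiation and elongation factors include 0 in the left 2 panels and lie on 1 side of it in the panels with the colon control.

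Other genes of the pathway were read from 6 lists. Termination and recycling (6 of 8 genes with a line), the integrated stress response (9 of 13), aminoacyl-tRNA synthetases (15 of 20) and mitochondrial translation factors (5 of 9) held no gene with 20 molecule-equivalents over the 4 libraries. The termination and recycling sum was at 305 CPM in the colon light and 707 CPM in the lymph node light library, a log2 ratio of -1.21 (-2.46 to -0.01), which included 0 with median-of-ratios scaling (-0.67, -1.92 to 0.54) and without ribosomal RNA genes in the totals (-0.84, -2.09 to 0.37). Its gene Denr, which helps to release ribosomal subunits, was at 12.8 against 277 CPM, from 1 and 7 molecules, with -4.44 (-15.0 to -0.63). Of the 5 genes of the list with a count in the light libraries, it was the 1 whose interval excluded 0, beside 2.8% of 8722 genes. Denr was named after its values were seen, and its value rests on 1 molecule in the colon light library. In the integrated stress response, which slows initiation by phosphorylating eIF2, with 6 to 8 genes with a count in a comparison, the interval of 0 genes excluded 0 in any of the 4, beside 0.813%, 2.8%, 4.08% and 4.49% of all genes in the order of the comparisons above. Of the mTOR and 4E-BP list (16 of 20 with a line), Pabpc1, the poly(A)-binding protein that contacts eIF4G, was at 256, 474, 1112 and 337 CPM, from 2, 26, 14 and 11 molecules. It was lower in the lymph node light than in the lymph node control library by 1.72 on the log2 scale, as the log2 ratio of -1.72 had an interval of -3.28 to -0.29. With median-of-ratios scaling it was -1.24 (-2.80 to 0.19), which includes 0. On the library total, Pabpc1 was the 1 of 13 genes of its list with a count there whose interval excluded 0, beside 0.813% of 6884 genes. The sum of that list had -1.07 (-1.92 to -0.24), and its interval included 0 without Pabpc1 (-0.68, -1.77 to 0.42) and with median-of-ratios scaling (-0.59, -1.44 to 0.25).

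6 of the other transcripts with a terminal oligopyrimidine start, a class that includes mRNAs for elongation factors, passed 20 molecule-equivalents. Fau, which encodes a ribosomal protein fused to a ubiquitin-like protein, was highest, at 1254, 2893, 4526 and 2893 CPM. Its log2 ratio was -0.65 (-1.20 to -0.08) for lymph node light against control and 0.00 (-0.46 to 0.48) between the light libraries. Median-of-ratios scaling gave -0.16 (-0.72 to 0.40) and 0.54 (0.08 to 1.02), so neither call was the same. On the library total, Fau was the 1 of 9 genes of the list with a count whose interval excluded 0 between the lymph node libraries. The share over all genes was 0.813% of 6884. Rack1, a protein of the small subunit, was at 293, 765, 1718 and 1501 CPM, with -0.97 (-1.75 to -0.20) for colon against lymph node in the light libraries. That interval included 0 with median-of-ratios scaling (-0.43, -1.21 to 0.35) and without ribosomal RNA genes in the totals (-0.60, -1.38 to 0.18). On the library total, Rack1 was the 1 of 9 genes whose interval excluded 0 between the light libraries, beside 2.8% of 8722 genes. Tpt1 was at 171, 1362, 1840 and 1659 CPM. Naca was at 73.8, 511, 359 and 849 CPM, and Npm1 at 0, 253, 302 and 411 CPM. The intervals of Tpt1, Naca and Npm1 included 0 between the lymph node libraries, except that Naca had 1.72 (0.14 to 3.71) with median-of-ratios scaling. The list's sum had -0.33 (-0.67 to 0.01) for lymph node light against control, beside 0.68 (-0.18 to 1.63) for the elongation factors. The difference between these values was not tested.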

How the data were processed

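The authors deposited raw counts as whole numbers for each gene in 379 to 384 barcode columns per library. The submitters' processing notes name FastQC, STAR 2.5.1a and mm10. The sources used here do not name the step from reads to counts. The lymph node tables end in an unnamed line of column totals, which was left out. Left out were Foxp3 everywhere and, from the colon control, Cd3d, Cd3e, Cd3g and Cd4, because their lines repeat those of another table by column position (correlation above 0.5) and do not follow their own table's column patterns. The largest such correlation for a translation factor gene was 0.147.

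The same molecule was taken to enter many columns, and what produced this is not known. Non-negative least squares split each gene's line into column patterns found in at least 2 genes. This solved 46.4% and 98.1% of counts in the colon control and light tables, 74.8% and 98.4% in those of the lymph node, and 0 of 300 lines with values moved between columns in each. A molecule was counted in 70.6, 52.3, 84.4 and 50.4 columns (size-weighted), by which sums were divided. The line of Eif5 in the lymph node control was not solved exactly.

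The members, lists and roles were chosen with earlier results of these data known. Named were all members that reached 20 molecule-equivalents in the 4 libraries together, members whose interval excluded 0 and list genes with 20 molecule-equivalents. Other genes are named as the highest or lowest of their role or to say what a role holds, after their values were seen. Log2 ratios of single genes for the filter and the 2-fold limit used a prior count of 0.5 scaled to depth. On simulated libraries for lymph node light against control, 95% intervals held the true ratio in 96.7% of cases without a change, 96.1% at 2-fold and 96.5% at 4-fold (100 simulations of 6888 genes). Only genes that reached 20 molecule-equivalents over both simulated libraries were scored, 64.92, 46.31 and 56.87 per simulation on average. Coverage for genes below that limit was not checked. Other scalings, totals, filters, priors and ways of counting were tried, and the lists without 1 gene and the other scalings of roles, lists and list genes were added after seeing the data. The barcode sheet of the pooled sample was not used. Some genes of the lists are not reported here. The software was Python 3.11.15 with scipy 1.17.1, numpy 2.4.6, matplotlib 3.10.9 and pandas 2.3.3.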

Additional observations from a re-analysis of the deposited data

How the results depend on the processing

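Depth limits every statement on single genes, and 1 library per group leaves differences between mice unmeasured. Of the 57 alternative values for the groups and the counts of genes, 46 stayed within the interval of the reported value or, for counts, within 1.5 times. For group sums, a change of side could be scored only where the reported interval excluded 0. That held only in the comparisons with the colon control, and no change of side occurred there. Sign changes in the other comparisons, such as those between the light libraries, were not scored. Median-of-ratios scaling moved initiation factors to 0.49 (0.06 to 0.93) for lymph node light against control, to 0.44 (0.12 to 0.77) for colon against lymph node in the light libraries and to 3.06 (2.17 to 4.11) for colon light against control. The total without ribosomal RNA genes and Gm12374 moved initiation factors in the light libraries to 0.27 (-0.05 to 0.60). Genes at least 2-fold apart, without a filter, numbered 28 of 50 (17 higher, 11 lower) for lymph node light against control, 18 of 51 for the light libraries, 35 of 46 for colon light against control and 33 of 38 for the control libraries, beside 60.4%, 60.7%, 68.4% and 87.5% of all genes with a count. With median-of-ratios scaling 2 of 2 were at least 2-fold apart in the lymph node (Eif1 and Eef1b2), beside 18.6% of the genes tested, and 1 of 5 in the light libraries, beside 27.9%. The total without ribosomal RNA genes also gave 1 of 5 there (Eif2s2 each time), beside 26.9%. Another scaling of the roles, lists and list genes, added after seeing the data, made the interval include 0 for 8 of 150 values, exclude it for 15 and reversed 3, all of the cytosolic ribosomal proteins: 0.19 for lymph node light against control and 0.29 for the light libraries with median-of-ratios scaling, and 0.12 for the light libraries without ribosomal RNA genes. The cause was not tested. All 112 alternative values of the 7 leading genes stayed within their intervals, which are wide and against the colon control often open at 1 end. Calls did change in colon light against control. With median-of-ratios scaling the intervals of 6 of 46 genes excluded 0 (13%), beside 4.97% of 7949 genes. Eef1a1, Eef1b2, Eef2 and Eif3c joined Eif1 and Eif2s2 there, and each of them had at most 1 molecule in the colon control. Only barcodes shared by both tables could not be used with the colon control, which shares at most 5. A filter of 50 molecule-equivalents left no gene to count other than in the light libraries (0 of 1), and in the control libraries no scaling, total or prior alternative had a gene that passed the filter.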
